A study of Mus musculus with 4 samples.

Results

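Integrins are the adhesion receptors by which leukocytes hold on to other cells and to matrix, and 10 integrin subunit genes were followed here in B220+ splenocytes, chosen by name: *Itgal*, *Itga4*, *Itgam*, *Itgax*, *Itgav*, *Itgb1*, *Itgb2*, *Itgb3*, *Itgb5* and *Itgb7*. All 10 were present among the 41214 genes counted and all 10 were among the 14554 genes tested, so none was lost to the filter on low counts. They comprise 5 alpha and 5 beta subunits. RNA-seq was performed on 2 libraries from MIZ-1WT and 2 from MIZ-1DPOZ spleens, without stimulation, to compare gene expression in B cells with intact and POZ-deficient MIZ-1. MIZ-1 is the zinc finger transcription factor encoded by *Zbtb17*, and its POZ domain mediates dimerization. In MIZ-1DPOZ mice, MB1-Cre, which is expressed from the B cell gene *Cd79a*, removed a floxed POZ domain in the B lineage, so other cell types in the preparation keep the intact allele. The WT genotype is labelled only as such, and whether these animals carried MB1-Cre was not stated. Both lines were on a C57BL/6 background, and the study worked with animals 40 to 70 days old. B220+ cells were taken by positive magnetic selection rather than by a flow cytometry gate.

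Each integrin is a heterodimer of an alpha and a beta chain, and which chains are paired sets the ligand. LFA-1 is alpha L with beta 2 (*Itgal* and *Itgb2*) and binds ICAMs. Alpha 4 (*Itga4*) pairs with beta 1 (*Itgb1*) to bind VCAM-1 and fibronectin, or with beta 7 (*Itgb7*) to bind MAdCAM-1 of mucosal vessels. LFA-1 and alpha 4 beta 1 are known to hold marginal zone B cells in the spleen. Alpha M and alpha X (*Itgam* and *Itgax*, also called CD11b and CD11c) are best known from macrophages, granulocytes and dendritic cells. Alpha v (*Itgav*) pairs with beta 3 or beta 5 (*Itgb3*, *Itgb5*), among other beta chains, to bind RGD motifs of matrix proteins.

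Each library held between 43026814 and 46387209 counts on genes. Values below are CPM, which is counts scaled to a common library total after TMM normalization, unless another scale is named. *Zbtb17* reached 47.8 and 46.3 CPM in MIZ-1WT and 37.3 and 38.0 in MIZ-1DPOZ, and gene counts do not show whether the POZ exons were read. *Xist* and 4 Y-linked genes separated the genotypes completely: *Xist* counts were 49 and 60 in MIZ-1WT and 38145 and 40838 in MIZ-1DPOZ, and the Y-linked genes were lower in MIZ-1DPOZ by log2 fold changes from -4.66 to -4.29. The sex of the animals and the genotype therefore cannot be told apart in any comparison given here. Of the 10 pan-B markers, 7 fell and none rose, with a median log2 fold change of -0.25. Their summed level was 15424 and 15486 CPM in MIZ-1WT against 13153 and 13972 in MIZ-1DPOZ. *Cd74*, with a log2 fold change of -0.07, alone made up between 37.7% and 41.8% of these sums. The other 9 summed to 9436 and 9648 CPM in MIZ-1WT against 7713 and 8126 in MIZ-1DPOZ. *Cd79a*, the gene from which MB1-Cre is expressed, had a log2 fold change of -1.44. *Cd74* and *Cd79a* were named after their values were seen. All 18 macrophage markers rose, with a median log2 fold change of 1.98. Among all tested genes, 21.1% were called higher and 18.9% lower by the test described below. The macrophage markers are summed next. Their summed level was 762 and 1008 CPM in MIZ-1WT and 4461 and 2995 CPM in MIZ-1DPOZ. No macrophage marker was at 0 in any library, the lowest count in MIZ-1WT being 46.

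The integrin subunits did not move as one. *Itgb5*, *Itgax*, *Itgam*, *Itgb1* and *Itgb2* rose in MIZ-1DPOZ cells, *Itgb7* fell, and *Itga4*, *Itgb3*, *Itgal* and *Itgav* did not pass the threshold of an adjusted p of 0.05 in the quasi-likelihood test of edgeR, adjusted over all tested genes by the Benjamini-Hochberg method. Thus 6 of 10 passed, where 40% of all tested genes did. The 5 higher genes stand against 21.1% of all tested genes called higher, and the 1 lower gene against 18.9% called lower. The groups did not overlap for 8 of the 10, against 74.8% of all tested genes. Without MIZ-1WT replicate 1, 2 subunits were called higher, *Itgb5* and *Itgb1*. Across the 10, log2 fold changes had a median of 0.26, against -0.01 over everything tested. In bulk RNA, fewer or more cells of a type and less or more RNA per cell cannot be told apart, and this applies to every value here. When the libraries were scaled on the 10 pan-B genes instead of by TMM, every log2 fold change moved up by about 0.19. Then 33.6% of all tested genes were called higher and 6.72% lower, and 6 subunits were higher and 1 lower, *Itgb3* being the addition. Scaling on these genes without *Cd74* or without *Cd79a* was not tested.

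**Figure D1:**
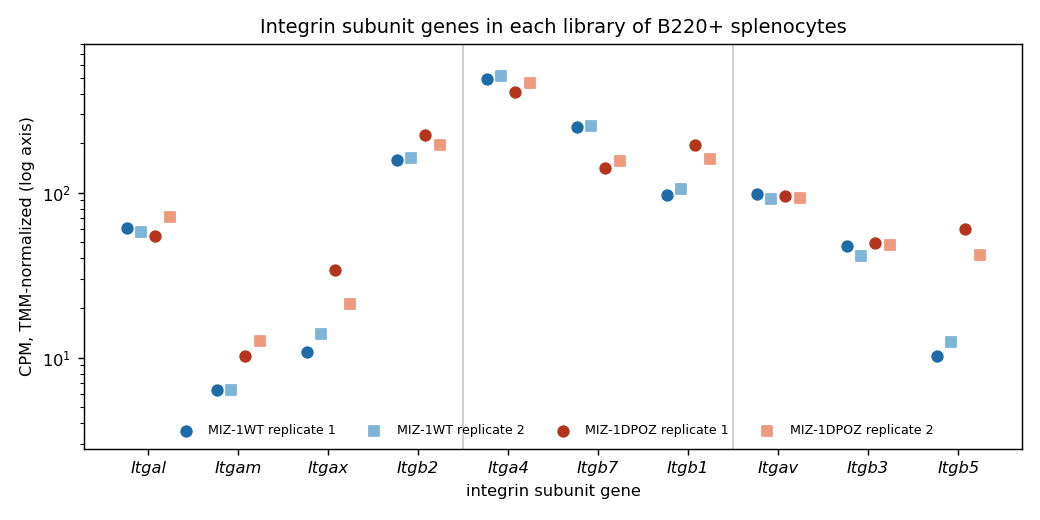
CPM (TMM-normalized, log axis) of the 10 integrin subunit genes, 1 point per library, ordered as the beta 2 group, the alpha 4 group and the alpha v group with vertical lines between them. Both MIZ-1DPOZ points lie above both MIZ-1WT points for *Itgam*, *Itgax*, *Itgb2*, *Itgb1*, *Itgb3* and *Itgb5* and below them for *Itga4* and *Itgb7*, while *Itgal* and *Itgav* overlap.

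The beta 2, alpha M and alpha X chains rose, whereas the alpha L chain of LFA-1 did not change beyond the spread of its libraries. *Itgb2* (chr10:77530252-77565708, plus strand), the shared beta chain of LFA-1, Mac-1 and CD11c, was present at 159 and 164 CPM in the MIZ-1WT libraries and at 225 and 196 in the MIZ-1DPOZ libraries. Both MIZ-1DPOZ values were higher, and the means were 161 ± 3.66 and 211 ± 20.2 CPM (SD, n = 2). The log2 fold change was 0.39 (95% interval 0.21 to 0.57, adjusted p = 0.0108 by edgeR). Without MIZ-1WT replicate 1 or 2 the adjusted p of *Itgb2* was 0.0809 or 0.0578, and over all alternatives it ranged from 0.000107 to 0.0809.

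*Itgal* (chr7:127296260-127335138, plus strand) encodes alpha L. It measured 61.6 and 58.1 CPM in MIZ-1WT, and 54.8 and 71.7 in MIZ-1DPOZ. The MIZ-1DPOZ libraries lay on either side of both controls, so the groups overlapped. Its log2 fold change of 0.08 (95% interval -0.23 to 0.39, adjusted p = 0.646 by edgeR) depended on which MIZ-1DPOZ library was used, being 0.27 (adjusted p = 0.0221) without replicate 1 and -0.11 without replicate 2. Over all alternatives the adjusted p of *Itgal* ran from 0.0221 to 0.896.

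*Itgax* (chr7:128129547-128150657, plus strand), the CD11c chain, rose from 10.8 and 13.9 CPM to 33.9 and 21.1 CPM, or 12.4 ± 2.17 against 27.5 ± 9.08 (SD, n = 2). This was a 2.23-fold difference with a log2 fold change of 1.16 (SE 0.24, adjusted p = 0.0150 by edgeR). Both MIZ-1DPOZ libraries were above both controls, although they differed from each other by 0.69 on the log2 scale. *Itgam* (chr7:128062640-128118491, plus strand), the CD11b chain, was the lowest of the 10 in every library and rose from 6.40 and 6.35 CPM to 10.3 and 12.6 CPM. Its log2 fold change was 0.84 (SE 0.13, adjusted p = 0.00645 by edgeR). Unlike *Itgax*, it was higher in MIZ-1DPOZ replicate 2 than in replicate 1. Leaving out MIZ-1WT replicate 1 raised the adjusted p of *Itgam* to 0.0529, within a range of 6.6e-05 to 0.0529 over its alternatives. The same step raised that of *Itgax* to 0.0920, within a range of 5.69e-06 to 0.0920.

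*Itgam* and *Itgax* are neighbours on the same strand of chromosome 7 and both rose, so their promoters are shown, each as the 250 bases before the RefSeq start on GRCm38.p6, 5′ to 3′, with CpG dinucleotides in capitals. The *Itgam* window is chr7:128062390-128062639 and the *Itgax* window is chr7:128129300-128129549, both on the plus strand.
Itgam: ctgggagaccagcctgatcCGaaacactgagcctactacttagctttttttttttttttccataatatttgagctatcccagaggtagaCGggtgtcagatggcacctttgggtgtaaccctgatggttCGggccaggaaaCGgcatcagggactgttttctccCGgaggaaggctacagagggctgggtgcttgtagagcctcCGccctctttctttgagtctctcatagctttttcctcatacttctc
Itgax: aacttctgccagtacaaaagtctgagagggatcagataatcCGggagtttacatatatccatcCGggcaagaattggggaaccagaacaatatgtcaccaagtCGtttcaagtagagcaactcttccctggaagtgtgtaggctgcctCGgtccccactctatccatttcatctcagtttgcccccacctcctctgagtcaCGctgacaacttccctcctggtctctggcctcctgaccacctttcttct
They hold 6 and 5 CpGs, where the median over 32851 promoters of the same length is 6. The PU.1 core letters GAGGAA, searched on both strands, occur in the *Itgam* window and not in that of *Itgax*, and are present in 23.3% of all these promoters. The Sp1 core letters GGGCGG are likewise in the *Itgam* window only of these 2, and in 32.7% of all promoters.

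*Itgad*, the alpha D chain that also pairs with beta 2, is not among the 10 but is needed to give their proportions. Its counts were 2445 and 2940 in MIZ-1WT and 18640 and 8787 in MIZ-1DPOZ, or 63.0 and 296 CPM on average. The log2 fold change of 2.23 (SE 0.32, adjusted p = 0.00473 by edgeR) was larger than that of any of the 10 subunits. Of 4555 words of 50 bases in the *Itgad* exons, 384 also occur in those of *Itgax*, so reads of these 2 paralogs can be confused or dropped, and no other pair among these subunits shared such a word. On a scale of CPM per kilobase of exon, alpha L made up 37.0% and 31.0% of the 4 beta 2 partners *Itgal*, *Itgam*, *Itgax* and *Itgad* in MIZ-1WT, and 8.0% and 17.6% in MIZ-1DPOZ. Alpha D made up 49.1% and 54.4% in MIZ-1WT and 83.3% and 71.4% in MIZ-1DPOZ. The 2 groups did not overlap in either share, and an exact two-sided permutation test of 2 against 2 libraries gave p = 0.333 for each, the smallest it allows. The ratio of *Itgb2* to *Itgal* per kilobase was 5.54 and 6.07 in MIZ-1WT and 8.83 and 5.89 in MIZ-1DPOZ, with overlapping groups.

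Beta 7 mRNA fell relative to beta 1 mRNA in MIZ-1DPOZ. Beta 1 also pairs with other alpha chains, among them that of *Itga9*. Bulk mRNA therefore does not show which beta chain alpha 4 was paired with. *Itga4* (chr2:79255426-79333123, plus strand), the chain common to the VCAM-1 and MAdCAM-1 receptors, was the most abundant of the 10 in CPM, with 493 and 508 in MIZ-1WT and 410 and 462 in MIZ-1DPOZ. Both MIZ-1DPOZ values were lower, but the log2 fold change of -0.20 (95% interval -0.37 to -0.03) had an adjusted p of 0.0639 by edgeR. Its adjusted p ranged from 0.00959 to 0.881 over the alternatives, being 0.0296 with DESeq2's Wald test and 0.0301 with no filter on counts, and 0.00959 without MIZ-1DPOZ replicate 2. *Cerkl* shares 1124 exon bases with *Itga4* on the opposite strand, and its counts of 136 to 168 per library are small beside the 19491 to 21526 of *Itga4*.

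*Itgb7* (chr15:102215995-102231944, minus strand) fell from 251 and 254 CPM to 141 and 157 CPM. The means were 252 ± 2.00 and 149 ± 11.5 CPM (SD, n = 2), and the groups were far apart relative to that spread. The log2 fold change was -0.76 (SE 0.06, 95% interval -0.92 to -0.61, adjusted p = 0.00129 by edgeR), and it lay between -0.83 and -0.58 in every alternative tried, each past the threshold.

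*Itgb1* (chr8:128685654-128733200, plus strand), the beta chain of the VLA receptors, went the other way. It was present at 97.0 and 106 CPM in MIZ-1WT and at 195 and 160 CPM in MIZ-1DPOZ, a 1.75-fold rise. The log2 fold change was 0.81 (SE 0.10, 95% interval 0.56 to 1.06, adjusted p = 0.00333 by edgeR), and *Itgb1* passed in every alternative tried. Per kilobase of exon, *Itgb7* exceeded *Itgb1* 3.81-fold and 3.53-fold in the MIZ-1WT libraries and 1.06-fold and 1.44-fold in the MIZ-1DPOZ libraries. The ratio of *Itgb7* to *Itga4* per kilobase was 2.57 and 2.52 in MIZ-1WT and 1.73 and 1.71 in MIZ-1DPOZ. Neither ratio overlapped between genotypes, and the exact two-sided permutation p was 0.333 for both, again the smallest possible.

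**Figure D2:**
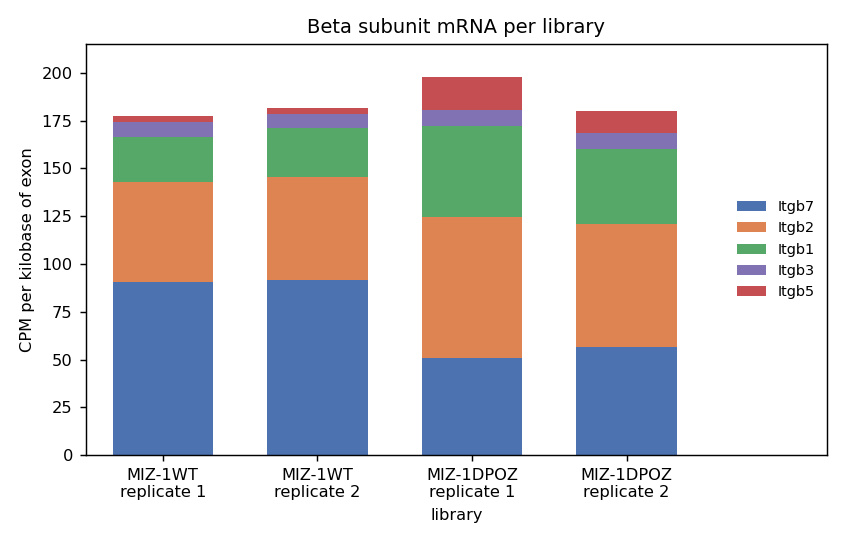
CPM per kilobase of exon of the 5 beta subunit genes, stacked for each of the 4 libraries on a linear axis from 0. The total height is 177 and 182 in MIZ-1WT and 198 and 180 in MIZ-1DPOZ, while the *Itgb7* part shrinks from 51.1% and 50.4% to 25.7% and 31.4%.

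Among the 5 beta chains, the total per kilobase therefore overlapped between genotypes while its makeup shifted. *Itgb2* took 29.3% and 29.5% of the total in MIZ-1WT and 37.3% and 35.7% in MIZ-1DPOZ. *Itgb1* took 13.4% and 14.3%, then 24.2% and 21.8%. *Itgb5* went from 1.63% and 1.94% to 8.58% and 6.52%, and *Itgb3* stayed within 3.84% to 4.56% in all 4 libraries. In order of mean CPM per kilobase, MIZ-1WT cells had *Itgb7* (91.2), *Itgb2* (52.8), *Itga4* (35.8), *Itgb1* (24.9), *Itgal* (9.11), *Itgav* (8.79), *Itgb3* (7.53), *Itgb5* (3.21), *Itgax* (2.57) and *Itgam* (1.27). In MIZ-1DPOZ cells, *Itgb2* (69.0) stood above *Itgb7* (53.7) and *Itgb1* (43.6) above *Itga4* (31.2), and *Itgb5* (14.3) above *Itgal*, *Itgav* and *Itgb3*. Such ranks, and the size of ratios between subunits, depend on the exon length used, which is the union of all annotated exons. That length is 13978 bases for *Itga4*, 10744 for *Itgav* and 2770 for *Itgb7*. Neighbours *Itgal* and *Itgav* overlapped in their library values in both genotypes.

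The alpha v group held the largest rise and the flattest gene. *Itgb5* (chr16:33829665-33949338, plus strand), which pairs with alpha v to bind vitronectin, had counts of 448 and 526 in MIZ-1WT and 2866 and 1831 in MIZ-1DPOZ. This corresponded to 10.3 and 12.5 CPM and to 60.2 and 41.7 CPM, a 4.48-fold difference that far exceeded the gap between replicates. The log2 fold change was 2.16 (SE 0.20, 95% interval 1.68 to 2.65, adjusted p = 0.00160 by edgeR), and it lay between 1.88 and 2.42 in all alternatives, each past the threshold.

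*Itgb3* (chr11:104608000-104670476, plus strand) encodes another partner of alpha v, which is also the beta chain of the platelet fibrinogen receptor. It measured 47.7 and 41.1 CPM in MIZ-1WT and 49.6 and 48.0 CPM in MIZ-1DPOZ. Its groups were just apart, with a log2 fold change of 0.14 (95% interval -0.07 to 0.34, adjusted p = 0.238 by edgeR). The adjusted p of *Itgb3* was 0.0316 only under scaling on pan-B genes, and it reached 0.802 without MIZ-1WT replicate 2. *Itgav* (chr2:83724397-83806916, plus strand) was at 97.8 and 91.1 CPM in MIZ-1WT and 95.6 and 93.6 in MIZ-1DPOZ, and the groups overlapped. The log2 fold change of *Itgav* was 0.00 with TMM (95% interval -0.13 to 0.14). Under scaling on pan-B genes it was 0.19, outside that interval, with an adjusted p of 0.0750 by edgeR. Per kilobase, *Itgb5* stood at 0.358 and 0.505 of *Itgb3* in MIZ-1WT and at 2.02 and 1.44 times *Itgb3* in MIZ-1DPOZ. This ratio leaves out the other beta chains that can pair with alpha v.

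The promoters of the subunit with the largest rise and of the one that fell are shown in the same form, with CpG dinucleotides in capitals. The *Itgb5* window is chr16:33829415-33829664 on the plus strand and the *Itgb7* window is chr15:102231936-102232185 on the minus strand, both on GRCm38.p6 from RefSeq.
Itgb5: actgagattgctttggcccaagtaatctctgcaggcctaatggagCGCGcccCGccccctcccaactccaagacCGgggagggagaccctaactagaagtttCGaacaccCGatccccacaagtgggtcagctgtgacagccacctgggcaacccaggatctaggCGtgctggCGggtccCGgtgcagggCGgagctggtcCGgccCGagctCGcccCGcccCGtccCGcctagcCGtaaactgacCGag
Itgb7: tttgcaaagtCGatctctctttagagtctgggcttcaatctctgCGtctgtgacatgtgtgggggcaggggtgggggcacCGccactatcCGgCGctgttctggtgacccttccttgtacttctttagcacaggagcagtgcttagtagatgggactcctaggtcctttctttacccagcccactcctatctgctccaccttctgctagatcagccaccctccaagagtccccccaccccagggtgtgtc
The *Itgb5* window holds 18 CpGs and 3 matches to GGGCGG, and that of *Itgb7* holds 5 CpGs and no match to any motif searched. RefSeq entries matched 7 of the 10 genes. Of those, *Itgav* and *Itgb1* had 18 and 21 CpGs and *Itga4* had 6. *Itga4* was the only one with the RUNX core letters TGTGGT, found in 14.0% of all promoters, and none held the E-box letters CACGTG, found in 6.02%. GAGGAA was in 3 of the 7, *Itgam*, *Itgav* and *Itgb1*, and GGGCGG in 4, *Itga4*, *Itgam*, *Itgb1* and *Itgb5*. All motifs were searched on both strands, and GGGCGG itself contains a CpG.

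The replicates of each genotype differed in macrophage marker RNA, so the subunits are given beside it. Between the MIZ-1DPOZ replicates, the summed macrophage markers were higher in replicate 1 by 0.57 on the log2 scale. Of the 18 markers, 17 were higher there and 1, *Lyz2*, was lower, at 112 CPM in replicate 1 and 225 CPM in replicate 2. *Itgb5* was higher there by 0.53, *Itgax* by 0.69, *Itgb1* by 0.28 and *Itgb2* by 0.20. *Itgb3* and *Itgav* were higher in replicate 1 by 0.05 and 0.03. *Itgam* was lower in replicate 1 by 0.29, *Itgal* by 0.39, *Itga4* by 0.17 and *Itgb7* by 0.16. In MIZ-1WT the summed markers were lower in replicate 1 by 0.40. *Itgax* was lower there by 0.36, *Itgb5* by 0.29, *Itgb1* by 0.13, *Itgb2* by 0.05, *Itga4* by 0.04 and *Itgb7* by 0.02. *Itgb3* was higher in that replicate by 0.21, *Itgav* by 0.10, *Itgal* by 0.08 and *Itgam* by 0.01. The part of macrophage RNA in the rises of *Itgb5*, *Itgax*, *Itgb1*, *Itgb2* and *Itgam* was not tested. Neutrophil markers were near the floor, with summed levels of 18.5 and 6.73 CPM in MIZ-1WT and 16.6 and 25.0 in MIZ-1DPOZ. Of 10 tested, 3 rose, where 21.1% of all tested genes were called higher and 18.9% lower. Conventional dendritic cell markers summed to 182 and 169 CPM in MIZ-1WT and to 136 and 142 in MIZ-1DPOZ, with 3 of 9 higher and 2 lower. *Ccr7* alone made up between 69.1% and 81.2% of these sums, and without it the other 8 markers summed to 35.6 and 31.7 CPM in MIZ-1WT and 42.1 and 37.6 CPM in MIZ-1DPOZ, so the direction turned. *Flt3*, *Zbtb46* and *Batf3* were the 3 that rose, by log2 fold changes of 0.74, 1.18 and 1.20. *Cd209a* was among the 2 that fell, with the largest change of the list at -1.35 (adjusted p = 0.00364 by edgeR). The part of dendritic cell RNA in the rise of *Itgax* was not tested. *Lyz2*, *Ccr7* and the dendritic cell genes were named after their values were seen. Without MIZ-1DPOZ replicate 1, which leaves a MIZ-1DPOZ library with 2995 CPM of macrophage markers, *Itgb5* had a log2 fold change of 1.88, *Itgax* 0.78 and *Itgb1* 0.67. The spread in that fit comes from the MIZ-1WT pair alone. That pair varied less between replicates than the MIZ-1DPOZ pair, with a mean chi-square per gene of 10.1 against 22.0.

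**Figure D3:**
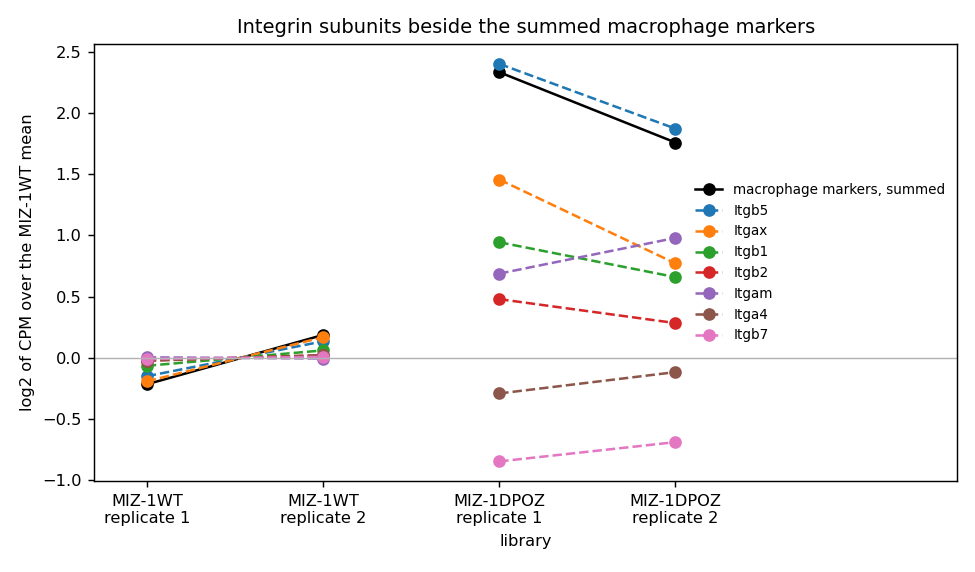
Log2 of CPM over the MIZ-1WT mean in each library for 7 subunits and for the summed macrophage markers (black), with lines joining replicates of 1 genotype. *Itgb5* and *Itgax* lie higher in MIZ-1DPOZ replicate 1 than in replicate 2, like the markers with their gap of 0.57, while *Itgam*, *Itga4* and *Itgb7* lie lower there.

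The rest of the family was read in the same way. Of 17 other genes listed, 12 were tested, 4 rose, 1 fell and 7 did not pass, with a median log2 fold change of 0.65. The list also held an integrin beta-like gene that is not a subunit, which was not among those tested. The 5 of 12 called compare with 40% of all tested genes. *Itga9*, whose product binds VCAM-1 and osteopontin with beta 1, rose from 21.8 and 22.5 CPM to 99.1 and 61.9 CPM (log2 fold change 1.86, adjusted p = 0.00275 by edgeR). *Itga6*, a laminin receptor chain, fell from 44.1 and 38.2 CPM to 27.5 and 29.4 CPM (log2 fold change -0.53, adjusted p = 0.00767 by edgeR). *Itga1*, a collagen receptor chain, rose at 0.767 against 2.63 CPM on average. *Itgb8* was called higher at 0.164 against 0.452 CPM on average (adjusted p = 0.0437 by edgeR), a call lost in 5 of its 7 alternatives, over which the adjusted p ran from 0.0247 to 0.210. *Itga9*, like *Itgad*, had more RNA in MIZ-1DPOZ replicate 1 than in replicate 2, as the macrophage markers did, and their part in these rises was not tested.

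**Figure D4:**
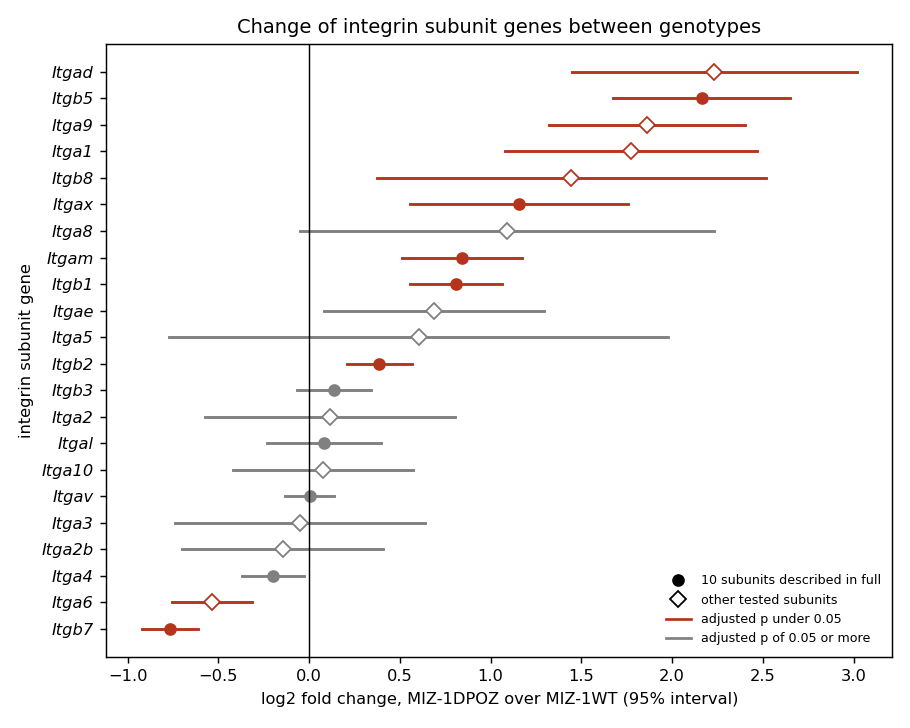
Log2 fold change (MIZ-1DPOZ over MIZ-1WT, 95% interval) of the 10 subunits described in full (filled circles) and the 12 other tested integrin subunits (open diamonds), red where the adjusted p is under 0.05. *Itgad* at 2.23 and *Itgb5* at 2.16 lie at the top and *Itgb7* at -0.76 at the bottom.

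Ligands and counter-receptors made within the same preparation also changed. Of 27 listed, 17 were tested, 10 rose and 4 fell, where 21.1% of all tested genes rose and 18.9% fell, and the median was 0.88 on the log2 scale. Without MIZ-1WT replicate 1 or 2, 9 of the 17 passed in either case. *Vcam1*, the ligand of alpha 4 beta 1, rose from 265 and 345 CPM to 1515 and 899 CPM (log2 fold change 1.98, adjusted p = 0.00376 by edgeR), higher in MIZ-1DPOZ replicate 1 as the macrophage markers were. *Icam1*, a ligand of LFA-1, rose from 74.1 and 75.1 CPM to 113 and 99.9 CPM (log2 fold change 0.52, adjusted p = 0.00426 by edgeR). *Icam2*, another ligand of LFA-1, fell from 71.9 and 74.9 CPM to 42.8 and 45.7 CPM (log2 fold change -0.73, adjusted p = 0.00126 by edgeR). *F11r*, the junctional molecule JAM-A, *C3*, the source of the Mac-1 ligand iC3b, and *Fn1*, fibronectin, rose from means of 1.26, 4.43 and 1.29 CPM to 6.42, 14.7 and 5.31 CPM. *Tgfb1*, whose latent form is bound by alpha v integrins, and *Mfge8*, a bridge between phosphatidylserine and alpha v integrins, fell by 0.62 and 0.69 on the log2 scale, and *Lamc1*, a laminin chain, by 0.33. The call of *Lamc1* was lost in 5 of 10 alternatives, over which the adjusted p by edgeR or DESeq2 ran from 0.0152 to 0.244, and that of *Mfge8* was lost without either MIZ-1WT library.

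Genes whose products bind integrin tails or switch integrins on were split. Of 28 tested of 33 listed, 6 rose, 9 fell and 13 did not pass, beside 21.1% higher and 18.9% lower among all tested genes, with a median log2 fold change of -0.01, equal to that of all tested genes at this precision. Without MIZ-1WT replicate 1 or 2, 7 or 8 passed. Lower and higher genes are named by smallest p. *Rasgrp2*, the exchange factor CalDAG-GEFI that loads Rap1, fell from 402 and 400 CPM to 196 and 207 CPM (log2 fold change -0.99, adjusted p = 0.000739 by edgeR). *Rap1b*, the GTPase itself, fell by 0.45 on the log2 scale, and *Apbb1ip*, which encodes the Rap1 effector RIAM, by 0.67. *Ptk2b*, the focal adhesion kinase relative PYK2, fell from 482 and 450 CPM to 285 and 321 CPM (log2 fold change -0.62, adjusted p = 0.00280 by edgeR), and *Cyth1*, cytohesin-1 of the beta 2 tail, fell by 0.29. The call of *Cyth1* was lost in 3 of 10 alternatives, at -0.09 under scaling on pan-B genes and without either MIZ-1WT library, and its adjusted p by edgeR or DESeq2 ran from 0.000224 to 0.334. In the other direction, *Ptk2*, focal adhesion kinase, rose from 18.2 and 21.5 CPM to 35.6 and 33.5 CPM (log2 fold change 0.80, adjusted p = 0.00300 by edgeR). *Rsu1*, a partner of the ILK and PINCH complex, rose from 33.2 and 34.8 CPM to 64.9 and 65.3 CPM. *Fyb*, the adaptor ADAP, rose from 8.53 to 19.6 CPM on average, *Cib1*, a binder of the alpha IIb tail, from 55.5 to 66.7 CPM, and *Tln2*, a talin, from 0.0586 to 0.572 CPM. The call of *Tln2* was lost without either MIZ-1WT library and that of *Cib1* without MIZ-1WT replicate 1.

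Membrane proteins that sit beside integrins changed in both directions. Of 12 listed and tested, 4 rose and 2 fell, beside 21.1% higher and 18.9% lower among all tested genes, with a median log2 fold change of 0.29. The tetraspanin *Cd9*, known as a marker of marginal zone and B-1 cells, rose from 20.9 and 17.1 CPM to 44.8 and 43.9 CPM (log2 fold change 1.22, adjusted p = 0.00139 by edgeR). The tetraspanins *Cd81* and *Cd82* rose by log2 fold changes of 0.45 and 0.65, and *Slc3a2*, the CD98 heavy chain that binds beta tails, by 0.26, a call lost without either MIZ-1WT library. *Cd37*, a tetraspanin of mature B cells, fell from 539 and 523 CPM to 354 and 381 CPM, and *Cd53* fell from 1474 and 1507 CPM to 1117 and 1069 CPM.

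**Figure D5:**
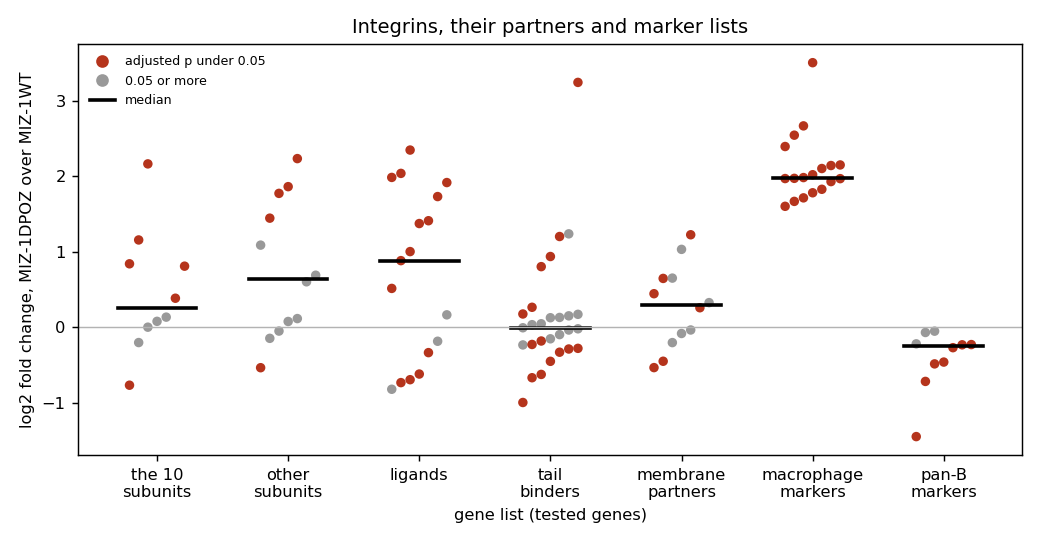
Log2 fold change (MIZ-1DPOZ over MIZ-1WT) of each tested gene in the integrin, ligand, tail binder and membrane partner lists and in the macrophage and pan-B marker lists, with the median of each list as a black bar and genes at an adjusted p under 0.05 in red. The 10 subunits have a median of 0.26, the ligands 0.88 and the tail binders -0.01, between the macrophage markers at 1.98 and the pan-B markers at -0.25.

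B cell subset markers are given beside these values, where 21.1% of all tested genes were called higher and 18.9% lower. Marginal zone markers rose in 6 of 9 cases and none fell, with a median log2 fold change of 0.65, and their summed level was 3733 and 3644 CPM in MIZ-1WT against 4113 and 4524 CPM in MIZ-1DPOZ. Of 6 follicular markers listed, 5 were matched by symbol. Of these 5, 3 fell and none rose, with summed levels of 2135 and 2296 CPM against 1592 and 1741 CPM. The share of subset composition in the lower *Itgb7* and the higher *Itgb1* was not tested.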

How the data were processed

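Stranded, rRNA-depleted paired-end RNA-seq libraries of B220+ splenocytes were made as biological duplicates (2 per genotype). The authors used Trimmomatic for trimming, TopHat2 (version 2.1.0 per the submitters' processing notes, another version in the study's methods) for mapping to mm10 (GRCm38) and HTSeq with Ensembl genes for counting. The deposited values are raw counts per gene and library. The strand setting and Ensembl release were not given in the sources used here, so genes overlapping on opposite strands are uncertain. Summary lines of HTSeq (no feature 21.1% to 27.2%, ambiguous 0.281% to 0.302%, not unique 42.8% to 44.1%) were left out.

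Symbols and positions came from GENCODE on GRCm38 (40340 of 41214 genes matched), promoter sequences from RefSeq on GRCm38.p6. The 14554 genes that reached 10 counts in 2 or more libraries entered edgeR 4.0.16 in R 4.3.3: TMM factors from 0.977 to 1.03, quasi-likelihood test, genotype only, Benjamini-Hochberg adjustment over all tested genes, threshold 0.05. SEs and 95% intervals are from that fit. It was also run on simulated counts with known changes in few genes and an equal spread in both genotypes. These data differ in both respects, so that run does not show how the fit performs here. CPM per kilobase used the union of exons. Alternatives were DESeq2 size factors, the DESeq2 1.42.0 Wald test, scaling on 10 pan-B genes, no filter, a filter at a mean of 30 RPM, the replicate number as block, and leaving out each library, where the lone library is assumed to vary like the other genotype. The 10 subunits, the partner and marker lists and these settings were chosen with earlier results of these data known. All 10 subunits are named. Other lists are named by up to 5 genes per direction, taken by smallest p among those past the threshold, and any tested integrin may be named. *Itgam* shares 3450 exon bases with *Gm49368*, a gene not in the table used here.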

Additional observations from a re-analysis of the deposited data

How the results depend on the processing

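*Itgb5*, *Itgb1* and *Itgb7* passed in all 10 alternatives. The subunits called numbered 5 higher and 1 lower under DESeq2 size factors and with the replicate block, 3 higher at a mean of at least 30 RPM, which drops *Itgax* and *Itgam*, and 2 lower with the DESeq2 Wald test and with no filter. Leaving out 1 library gave 2 to 6 higher and 1 to 2 lower, with 2 higher without MIZ-1WT replicate 1, 848 to 2626 lower and 1374 to 2955 higher genes among all tested, 9 to 13 ligands, 7 to 15 tail binders, 5 to 7 membrane partners and 4 other integrins. All genes called were 4893 higher and 978 lower under scaling on pan-B genes, and 1464 and 1282 at 30 RPM, where 3 other integrins and 4 ligands passed. The labels state no animal or day shared by same-numbered libraries, and the deviations of same-numbered libraries correlated at -0.07 over genes (2 pairs). With the replicate block, 2633 genes were higher and 2099 lower, and *Itgb8* (adjusted p = 0.0678) and *Lamc1* (adjusted p = 0.0611) were lost, with no other named call changed.

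Signs turned only for genes that did not pass: with 1 library left out, log2 fold changes ran from -0.11 to 0.27 for *Itgal*, -0.049 to 0.053 for *Itgav*, -0.19 to 0.50 for *Itga2*, -0.091 to 0.26 for *Itga10* and -0.29 to 0.19 for *Itga3*. With no filter *Itgav* was at -0.0056, and under pan-B scaling *Itga3* was at 0.14 and *Itga2b* at 0.043. The causes were not tested. With 2 libraries per genotype, the residual spread rests on few values, and permutation tests of single ratios cannot go below 0.333.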

Other observations

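Markers of further cell types that B220 selection could hold were also read. Their counts stand beside 21.1% called higher and 18.9% called lower among all tested genes. T cell markers summed to 85.8 and 66.8 CPM in MIZ-1WT and to 87.2 and 93.9 CPM in MIZ-1DPOZ, with 2 of 13 higher and none lower. NK cell markers, several of which B220+ NK cells share, summed to 62.1 and 59.1 CPM against 65.2 and 71.5 CPM, with 2 of 8 higher. Plasmacytoid dendritic cell markers, from a cell type that carries B220, summed to 123 and 113 CPM against 135 and 103 CPM, with 1 of 6 higher. Megakaryocyte markers summed to 5.41 and 7.0 CPM against 17.4 and 11.9 CPM, with 2 of 4 tested higher, but *Clec1b* alone made up between 83.7% and 93.1% of these sums. The other 9 megakaryocyte markers summed to 0.642 and 1.14 CPM against 1.20 and 1.03 CPM, which overlap. Stromal and endothelial markers summed to 322 and 325 CPM against 304 and 303 CPM, with 1 of 4 tested higher and 1 lower. *Pecam1* made up between 83.4% and 95.8% of those sums, and the other 9 summed to 13.6 and 15.4 CPM against 50.4 and 39.2 CPM. Plasma cell markers rose in 5 of 6 cases, with a median log2 fold change of 1.01 and summed levels of 734 and 1059 CPM against 2477 and 2311 CPM, or 432 and 443 CPM against 529 and 524 CPM without *Jchain*. B-1 cell markers rose in 4 of 6 and fell in 1, with summed levels of 894 and 1042 CPM against 875 and 946 CPM, or 465 and 636 CPM against 317 and 346 CPM without *Plac8*. These 4 genes, the most abundant of their lists, were named after their values were seen.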
